A study of Arabidopsis thaliana with 2 samples.

Results

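The 10 genes described here store, take up or move iron in Arabidopsis thaliana. They were chosen by locus: the ferritins FER1 (AT5G01600), FER2 (AT3G11050), FER3 (AT3G56090) and FER4 (AT2G40300), the nicotianamine synthases NAS3 (AT1G09240) and NAS4 (AT1G56430), the transporters OPT3 (AT4G16370) and YSL1 (AT4G24120), and the uptake genes FRO2 (AT1G01580) and IRT1 (AT4G19690). They were 10 of 26374 genes with a probe on the array, and 15 probes matched them by locus or accession, with another 3 that carried only the symbol FER1 or FER3. Of the 10 genes, 7 had a probe bright enough to be tested, among 16955 such genes, and FER2, FRO2 and IRT1 did not.

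The study set young leaves of the transgenic line 35S:NROB #2 against leaves of wild-type plants, both Columbia-0 and both harvested at day 30, to find transcripts that differ between them. In such names 35S denotes a strong promoter of viral origin. The sources used here do not give the meaning of NROB, and #2 is 1 transgenic line, so line and transgene cannot be told apart. RNA of 1 sample of each genotype was hybridised to each of 2 two-colour Agilent arrays. The labels call the arrays biological replicates, without saying whether a sample was 1 plant or a pool. The spread below is that between these 2 arrays, and how far it reflects single plants is not known. Unless said otherwise, the p-values set the mean log2 ratio against that spread, moderated by the spread of all genes tested. The transgenic RNA carried Cy3 and the wild-type RNA carried Cy5 on both arrays, so dye and genotype cannot be told apart. No probe name holds the word NROB, and the transgene itself was not checked.

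Ferritins are plastid and mitochondrial protein shells that hold iron in a form that does not react, and FER1 is the main ferritin of Arabidopsis leaves, known to be induced by iron excess. When iron is short, root cells reduce ferric iron with FRO2 and import ferrous iron with IRT1. Nicotianamine, made by the NAS enzymes, keeps iron soluble as it moves through the plant, YSL transporters carry the metal complexes across membranes, and OPT3 loads iron into the phloem, through which leaves report their iron status to the root.

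Values are the authors' normalized intensities, in arbitrary units that can be compared between genotypes for 1 probe but not between probes. Each log2 ratio sets 35S:NROB #2 over wild type, so a negative value is lower in the transgenic leaves, and is given as mean ± SD of the 2 arrays. Each gene was represented by its brightest probe that the deposited flags mark P, taken as present, on both arrays. Median intensities of the tested genes were 1087 and 1246 in 35S:NROB #2 and 1092 and 1244 in wild type, on arrays 1 and 2. Precision is limited by the number of arrays, which leave 1 residual degree of freedom in the limma fit. The leaf mesophyll markers were bright in both genotypes, with 5 of 5 tested. Their summed intensities were 734152 and 639749 in 35S:NROB #2 against 707042 and 760637 in wild type. Such a sum mostly reflects the brightest probes, here CAB1, RBCS1A and RBCS3B. None of 5 root and 4 seed markers was bright enough to test, their highest channels being 22.3 and 12.6.

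All 3 tested ferritins were lower in 35S:NROB #2 on both arrays, and FER1 was the lowest of them. FER1 had intensities of 4756 and 7310 in the transgenic leaves on arrays 1 and 2, against 13418 and 20874 in wild type. The transgenic values lay below both wild-type values, and the 2 ratios differed little, at -1.50 and -1.51. FER1 was thus 2.84-fold lower (log2 ratio -1.51 ± 0.01), which placed it 103rd from the lowest of the 16955 genes. Its adjusted p of 0.0517 from limma lay just outside the threshold of 0.05, with an unadjusted p of 0.000271.

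FER3, another plastid ferritin, had intensities of 1012 and 1009 in 35S:NROB #2, against 1582 and 2148 in wild type. The genotypes did not overlap, and the transgenic level was nearly the same on both arrays while the wild-type level was not. The gene was 1.82-fold lower, with a log2 ratio of -0.87 ± 0.31 (limma adjusted p = 0.0740).

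FER4, the ferritin known from mitochondria as well as plastids, had intensities of 4976 and 7141 in 35S:NROB #2, against 6929 and 11009 in wild type. It was lower within each array, but the transgenic value of array 2 lay above the wild-type value of array 1. Its log2 ratio was -0.55 ± 0.10, or 1.47-fold lower (limma adjusted p = 0.0822). FER2, known as the ferritin of seeds, had intensities of 14.8 and 8.71 in 35S:NROB #2, against 11.7 and 17.2 in wild type. All 4 values lay under the lowest intensity flagged P in their channel (35.1 and 51.0 in 35S:NROB #2, 28.0 and 25.4 in wild type), so no fold is given.

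**Figure D1:**
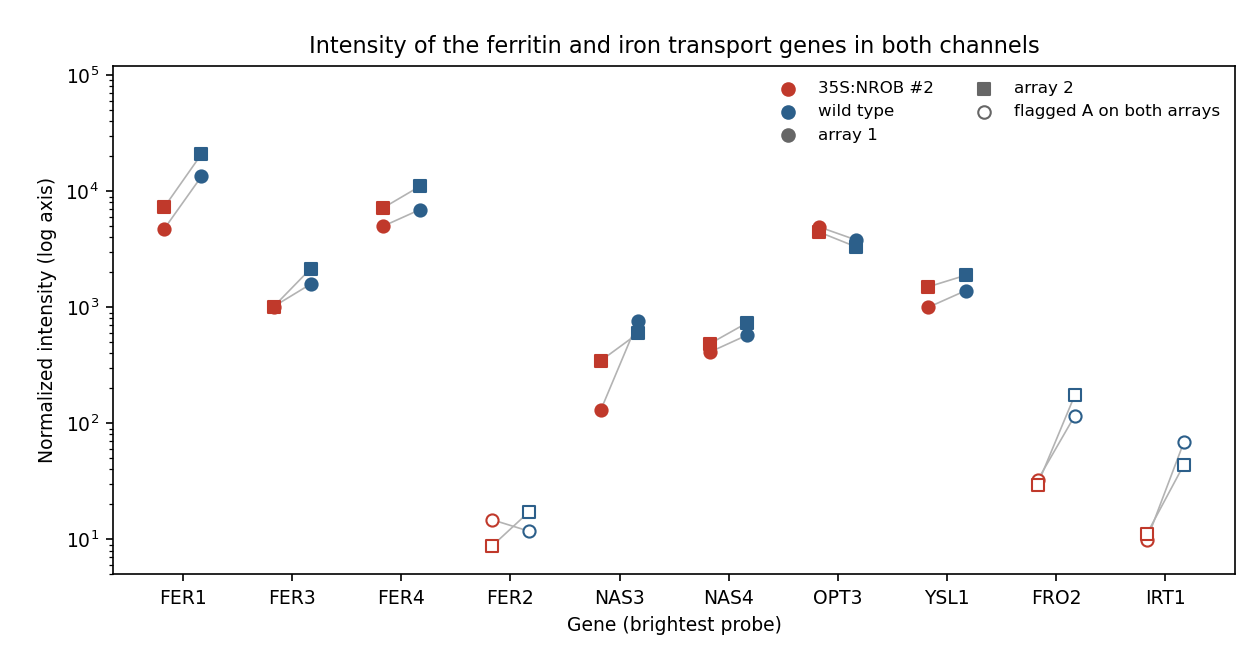
Normalized intensity (log axis) of the brightest probe of each of the 10 genes, with 35S:NROB #2 in red left of wild type in blue; circles are array 1, squares array 2, open symbols are probes flagged A on both arrays, and lines join the channels of 1 array. The lines of FER1, FER3, FER4, NAS3, NAS4 and YSL1 climb towards wild type on both arrays, and those of OPT3 descend.

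FER1 was measured by 5 probes, and they fell into 2 kinds. The 3 probes whose description cites the FER1 mRNA had mean log2 ratios of -1.59, -1.51 and -1.42, over a wide range of brightness. The dimmest of these had intensities of 209 and 359 in 35S:NROB #2, against 565 and 949 in wild type.

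The other 2 probes carry the symbol FER1 alone, and their descriptions cite a cDNA clone from siliques and a sequence from pooled cDNA. Their intensities were 435 and 499 in 35S:NROB #2 against 480 and 477 in wild type, and 718 and 780 against 781 and 742. Both had a mean log2 ratio near 0 (-0.04 ± 0.15 and -0.03 ± 0.14), with opposite signs on the 2 arrays. Averaging the 5 probes brought the log2 ratio of FER1 to -0.92 (limma adjusted p = 0.0479), under the size the study asked for. Probe sequences were not used here, so what these 2 probes bind, and any cross-hybridisation within a gene family, was not tested.

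The second probe of FER4 was lower as well, at 1835 and 2062 in 35S:NROB #2 against 2509 and 3709 in wild type (log2 ratio -0.65 ± 0.28). A second FER3 probe, matched by symbol alone, was dim in all 4 channels, between 8.12 and 15.0.

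**Figure D2:**
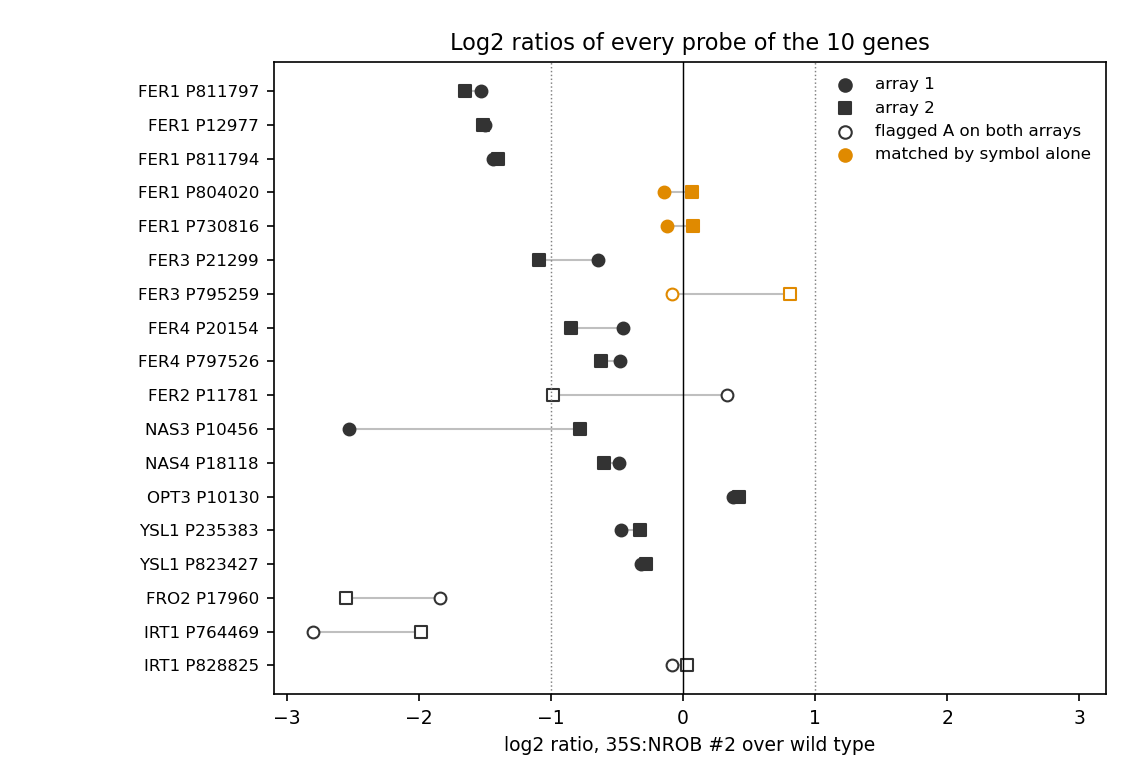
Log2 ratio of 35S:NROB #2 over wild type for each of the 18 probes of the 10 genes, with circles for array 1 and squares for array 2; open symbols are probes flagged A on both arrays, whose ratios set at least 1 channel under the lowest intensity flagged P, orange marks probes matched by symbol alone, and dotted lines mark a log2 ratio of 1 in size. The 3 FER1 probes matched by accession sit between -1.65 and -1.40, and the 2 matched by symbol sit near 0.

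Both nicotianamine synthases were lower in 35S:NROB #2. NAS3 had intensities of 131 and 347 in the transgenic leaves, against 757 and 595 in wild type. The genotypes did not overlap, but the arrays disagreed on the size, with log2 ratios of -2.53 and -0.78. The mean of -1.65 ± 1.24 (limma adjusted p = 0.112) therefore rests on array 1, without which NAS3 would stand at -0.78. NAS4 had intensities of 412 and 486 in 35S:NROB #2, against 576 and 735 in wild type. The channels did not overlap, and the ratios of the 2 arrays were close, at -0.54 ± 0.08 or 1.45-fold lower (limma adjusted p = 0.0821).

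The same enzyme is encoded by 2 more genes. NAS1 (AT5G04950) had intensities of 156 and 219 in 35S:NROB #2, against 793 and 907 in wild type, without overlap. It was 4.58-fold lower (log2 ratio -2.20 ± 0.21), the 22nd lowest of the 16955 genes, with a limma adjusted p of 0.0513. NAS2 (AT5G56080) was dim in every channel, with 7.19 and 8.19 in 35S:NROB #2 and 7.32 and 7.82 in wild type. The 3 tested synthases were thus lower on both arrays, where 43.3% of all genes were, and none passed limma.

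The 2 long-distance transporters stood on opposite sides of wild type, each by a small amount. OPT3 was the 1 tested gene of the 10 that was higher in the transgenic leaves, with 4917 and 4441 in 35S:NROB #2, against 3792 and 3307 in wild type. The genotypes did not overlap, and the gene was 1.32-fold higher (log2 ratio 0.40 ± 0.04, limma adjusted p = 0.111).

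YSL1, which moves iron bound to nicotianamine in leaves and to seeds, had intensities of 1000 and 1501 in 35S:NROB #2, against 1388 and 1883 in wild type. It was lower within each array, with overlap across arrays, at a log2 ratio of -0.40 ± 0.10 (limma adjusted p = 0.118). Its second, dimmer probe had 251 and 400 in 35S:NROB #2 against 314 and 485 in wild type, a log2 ratio of -0.30 ± 0.03.

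The 2 genes of iron import had little signal in these leaves. FRO2, the ferric reductase of the root surface, had intensities of 32.2 and 29.6 in 35S:NROB #2, against 116 and 174 in wild type. The transgenic channels were under the lowest intensity flagged P, so that only a bound can be given, and FRO2 was at least 3.35-fold lower. Such a bound sets the wild-type mean against that lowest intensity instead of the transgenic signal itself.

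IRT1, the ferrous iron importer, had 9.81 and 11.1 in 35S:NROB #2, against 68.6 and 43.8 in wild type. Over the mean of both arrays it was at least 1.30-fold lower, but that bound rests on array 1. On array 2 the wild-type value lay under the lowest transgenic intensity flagged P (51.0), so array 2 alone gives no bound. A second IRT1 probe was dim throughout, between 8.03 and 9.01 in all 4 channels. The A flag, taken as absent, was given where the dimmer channel reached at most 50.1 on array 1 and 66.0 on array 2. A probe bright in wild type alone, or in 35S:NROB #2 alone, could thus be left out of the test.

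Of the 7 tested genes, none passed limma, in a background where 0.248% of all genes tested did, 0.236% higher and 0.0118% lower. An unadjusted p under 0.05 was reached by 6 lower genes and 1 higher, against backgrounds of 17.6% and 15.5% of all genes. FER1 and NAS3 were past the study's fold rule, a mean log2 ratio beyond 1 or -1 that has 1 sign on both arrays, where 2.85% of all genes were lower by that rule and 4.83% higher. Without array 1 the pair would be FER1 and FER3 instead. The channels did not overlap for 4 lower genes (FER1, FER3, NAS3 and NAS4), where 30.1% of all genes did the same, and for OPT3, where 23.2% did. The 6 genes lower on both arrays stood against 43.3% of all genes, and the 1 higher against 37.8%. The median log2 ratio of the 7 genes was -0.55 (-0.48 on array 1 and -0.62 on array 2), beside -0.03 for all genes tested. The 3 genes not tested are outside these counts.

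Whether FER1 was called varied with the scaling, the filter and the pairing. It passed limma in 8 of 10 alternatives that gave a test, with adjusted p-values from 3.48e-08 to 0.0737 and log2 ratios from -1.56 to -0.92. Of these 10, the deposited series matrix holds the reported ratios again and could not give another result. FER3 and NAS3 were called when the 2 channels of an array were treated as unpaired (limma adjusted p = 0.0043 and 7.76e-10). The 3.48e-08 of FER1 came from that setting too. Its p-values tracked the size of the ratio and do not set it against the spread of the gene. YSL1 at -0.40 and OPT3 at 0.40 both had a limma adjusted p of 0.317 there. FER4, NAS4, OPT3 and YSL1 were called in none of the 10.

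**Figure D3:**
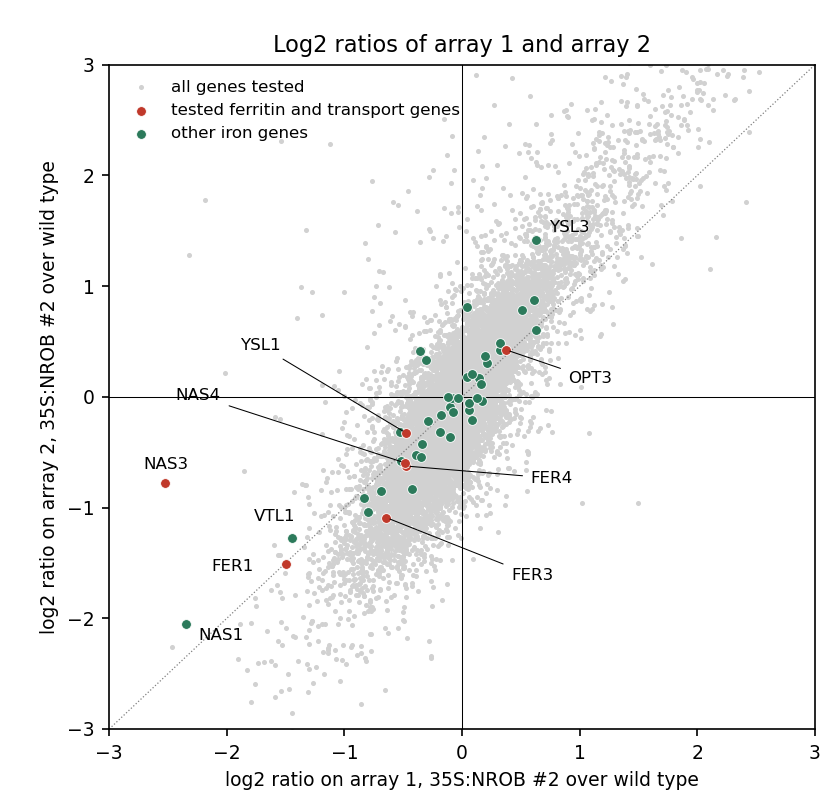
Log2 ratio of 35S:NROB #2 over wild type on array 2 (vertical) against array 1 (horizontal) for the tested genes, with the 7 tested ferritin and transport genes in red, the other iron genes in green and all genes in grey; the dotted line marks equal ratios, and 219 genes lie outside the axes. FER1 lies on that line at -1.50 and -1.51, and NAS3 lies far from it at -2.53 and -0.78.

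The genes whose pair of log2 ratios was most like that of FER1 were chosen by the smallest Euclidean distance over the 2 arrays. They were the cold- and stress-induced gene KIN2 (AT5G15970, distance 0.073, mean log2 ratio -1.54), the phosphoglucan, water dikinase PWD (AT4G24450, 0.098, -1.49), which acts in starch breakdown, and the transporter UMAMIT36 (AT1G70260, 0.112, -1.49). The likeness covers 2 values a gene and is given as a description.

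Another 61 genes of iron homeostasis were read beside the 10, and 40 of them were tested. On both arrays 13 of these were higher and 20 lower, where 37.8% and 43.3% of all genes were. The sign of 7 differed between arrays, and the median log2 ratio was -0.04, with a range from -2.20 to 1.02. None passed limma, and an unadjusted p under 0.05 was reached by 6 higher and 11 lower genes of the 40, where 15.5% and 17.6% of all genes did so. The fold rule was passed by 3 of the 40, against 4.83% higher and 2.85% lower over all genes. These were NAS1 and VTL1, both lower, and YSL3, which was higher. NAS1 and VTL1 were each called by limma in 7 of 9 alternatives, with adjusted p-values from 4.23e-17 to 0.0719 and from 9.22e-07 to 0.0737. The lowest value of each came from the unpaired setting, whose p-values do not reflect the spread of the gene.

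VTL1 (AT1G21140), a vacuolar iron transporter-like protein, had intensities of 61.7 and 118 in 35S:NROB #2, against 168 and 284 in wild type. The genotypes did not overlap, and it was 2.57-fold lower (log2 ratio -1.36 ± 0.12, limma adjusted p = 0.0517). Of the 12 genes for transport at vacuoles and organelles, in either direction, 9 were tested, with a median of -0.45. On both arrays 7 were lower and none was higher (43.3% and 37.8% over all genes). The mean log2 ratios of these 7 ran from -1.36 to -0.02, so some were near 0.

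YSL3 (AT5G53550), which acts with YSL1 in leaf veins and in loading of seeds, stood above wild type, where YSL1 stood below it. Its intensities were 8115 and 12328 in 35S:NROB #2, against 5240 and 4618 in wild type, without overlap. It was 2.03-fold higher (log2 ratio 1.02 ± 0.56, limma adjusted p = 0.0875), with 0.63 on array 1 and 1.42 on array 2, so the size rests on array 2.

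Among the ferric reductases other than FRO2, FRO4 (AT5G23980) stood furthest from 0. It had 157 and 151 in 35S:NROB #2, against 279 and 285 in wild type (log2 ratio -0.87 ± 0.06, limma adjusted p = 0.0568). The 5 such reductases tested held 2 that were higher on both arrays and 2 that were lower (37.8% and 43.3% over all genes).

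AHA2 (AT4G30190), the proton pump that acidifies the soil around iron-starved roots, had 5292 and 7025 in 35S:NROB #2, against 3415 and 4609 in wild type. It was higher on each array with little spread (log2 ratio 0.62 ± 0.02, limma adjusted p = 0.0724). The genotypes did not overlap.

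Of the 14 regulators, 9 were tested, with a median of -0.05. On both arrays 3 were higher and 5 lower (37.8% and 43.3% over all genes). The transcription factor bHLH34 (AT3G23210) stood furthest from 0, with 329 and 317 in 35S:NROB #2, against 442 and 565 in wild type (log2 ratio -0.63 ± 0.29, limma adjusted p = 0.0952). Another 10 loci of the list have no gene name in the files or the reference table and are given no role here. Among them AT1G18910, described in the table as a zinc ion binding protein, had 300 and 419 in 35S:NROB #2 against 197 and 229 in wild type (0.74 ± 0.19, limma adjusted p = 0.0715).

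One coumarin gene was tested: BGLU42 (AT5G36890), a beta-glucosidase, with 1168 and 1332 in 35S:NROB #2 against 1480 and 1789 in wild type (log2 ratio -0.38 ± 0.06, limma adjusted p = 0.120). Coumarins are secreted by roots to dissolve iron. The other coumarin genes of the list were not tested. Among them F6'H1, chosen after its values were seen, had 1153 and 1392 in 35S:NROB #2 against 6.10 and 5.44 in wild type. It was flagged A on both arrays and is described further below.

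**Figure D4:**
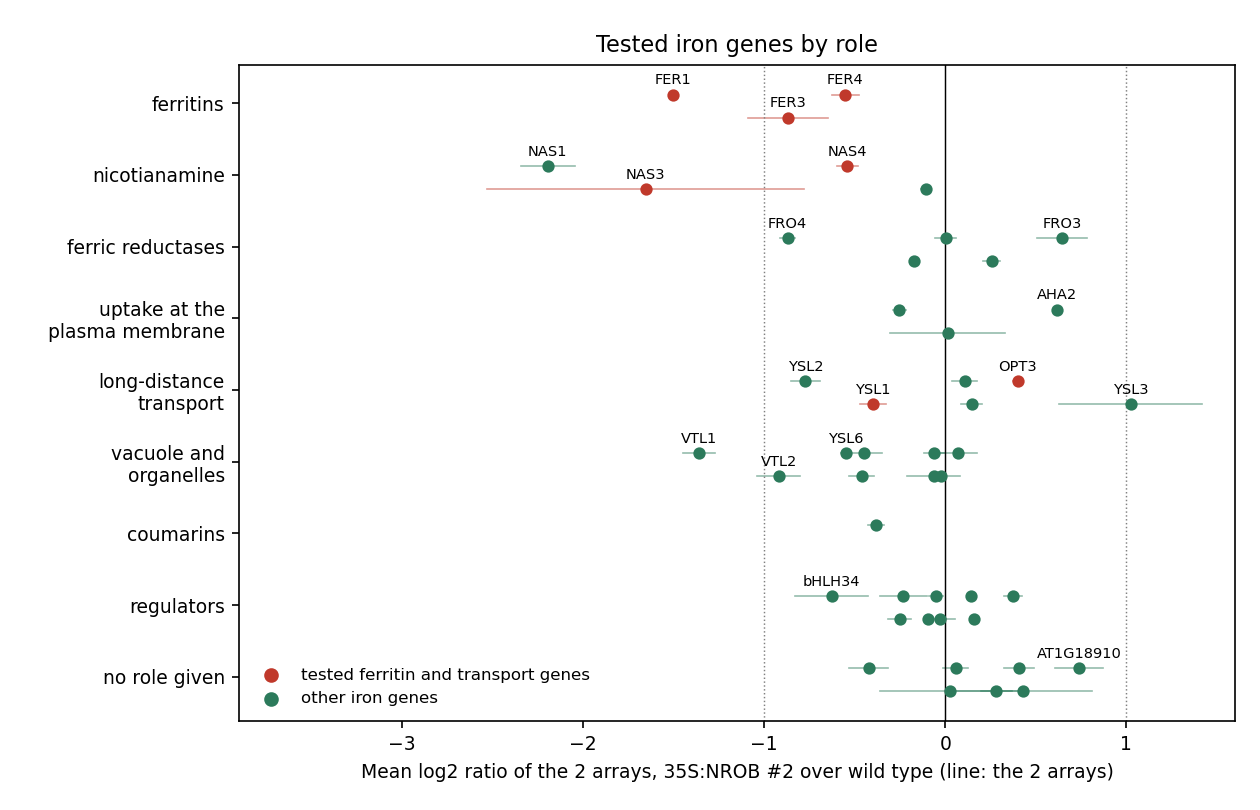
Mean log2 ratio of the 2 arrays, 35S:NROB #2 over wild type, for the 47 tested genes of the iron list by role; each line spans the 2 arrays, red marks the tested ferritin and transport genes, green the other iron genes, and dotted lines mark a log2 ratio of 1 in size. The ferritins and the nicotianamine genes all lie left of 0, and the other roles lie on both sides or hold 1 gene, apart from the vacuole and organelle row, whose highest mean is 0.07.

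OPT3, YSL1, YSL3 and the NAS genes act in or near veins, so phloem markers were read beside them. All 7 phloem markers were tested, and all 7 were lower in 35S:NROB #2 on both arrays, where 43.3% of all genes were. Their median log2 ratio was -0.48 (range -0.78 to -0.33), with none past limma (lowest adjusted p = 0.0679). Of the 5 leaf mesophyll markers, 2 were lower and 1 was higher on both arrays, with a median of -0.20 (range -0.47 to 0.12). The summed intensity of the phloem markers was 54221 and 58961 in 35S:NROB #2, against 70494 and 82169 in wild type, and no defining marker was near 0. This sum too is led by its brightest probes, PP2-A1 and SUC2. The part of these markers in the ratios of the vein genes was not tested, and in a bulk sample fewer cells of a type and less RNA per cell cannot be told apart. Of the vein genes, NAS1 had a mean log2 ratio of -2.20 and NAS3 of -1.65, the latter with -0.78 on array 2. Those of NAS4 and YSL1 were -0.54 and -0.40. OPT3 at 0.40 and YSL3 at 1.02 lay above wild type, where all 7 phloem markers lay below it.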

How the data were processed

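Leaf RNA of 2 samples of 35S:NROB #2 and 2 of wild type was measured on 2 two-colour arrays. Per the submitters' processing notes, Agilent Feature Extraction 8.5.1.1 was used. Per the file headers, the authors deposited linear normalized intensities for both channels and, for each array, a log2 ratio that has wild type on top, whose sign was turned here. The sources used here do not give the background correction or the normalization. The deposited series matrix already held log2 ratios turned this way (within 5.38e-06). On array 2 a header for wild type names the transgene too; its values were read as wild type since they return the deposited log2 ratio (within 9.62e-07). The meaning of the deposited flags P and A was inferred from the values.

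Of 43663 probes, 60 were controls. A locus was found for 36687 gene probes through a RefSeq table (TAIR10.1), and 6916 had none. That table gave the link from accession to locus, the gene names and the descriptions cited here. Each gene took the brightest of its probes flagged P on both arrays, out of 25318. limma 3.58.1 in R 4.3.3 (lmFit with an intercept, eBayes) was fitted to the 2 log2 ratios of 16955 genes, with 2.71 prior degrees of freedom and Benjamini-Hochberg adjustment over all genes. The script was tested on simulated data. Taking the ratio within an array pairs the samples, which were hybridised together. Alternatives covered scaling, offset, filters, probe choice, pairing, the series matrix and leaving out each array. The 10 genes, the 61 others and the markers were chosen with earlier results of these data known. Named were the 10 genes, those of the 61 called or past the fold rule, and the 3 genes nearest to FER1. The tested gene of each role with the largest mean log2 ratio in size was named too. Others are said to be chosen later, apart from NAS2, given to complete its family. Python 3.11.15, pandas 2.3.3 and matplotlib 3.10.9 were used.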

Additional observations from a re-analysis of the deposited data

How the results depend on the processing

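For the 7 tested genes, 59 of 69 alternative values with a test stayed on their side of the threshold. Another 10 passed limma where the reported value did not, and 0 changed sign. The 69 include the series matrix, which holds the reported log2 ratios again, so its values could only stay the same. The 14 values with an array left out have no test. Their sign could not change, since each of the 7 genes had 1 sign on both arrays. Of the 10 genes, limma called 0 as reported; it called 1 (FER1) with median centring, loess, quantile normalization, an offset of 50, the lower quartile of intensity left out or the mean of the probes, 3 with all gene probes (FER1, FRO2, IRT1; the ratios of the last 2 rest on transgenic signal under the lowest flagged P) and 3 without the replicate block that pairs the channels of an array (FER1, FER3, NAS3). The fold rule took 2 as reported, 4 with all gene probes (again with FRO2 and IRT1), 1 (FER1) without the lower quartile and 1 (NAS3) with the mean of the probes; leaving out an array gave 2 each time, FER1 with FER3 without array 1 and FER1 with NAS3 without array 2. Of the 61 other iron genes, limma called 0 as reported, 3 with median centring, 6 with loess, 3 with quantile normalization, 2 with the offset, 5 with all gene probes (F6'H1 and YSL7 against wild-type signal under the lowest flagged P), 2 with the mean of the probes and 7 without the replicate block. The fold rule took 3 of them as reported, 5 with all gene probes, 1 without the lower quartile, 2 with quantile normalization (without YSL3), 2 with the offset (without VTL1), and 2 to 4 when an array was left out. Over all genes, limma called 42 as reported (40 higher, 2 lower), 516 higher and 175 lower with median centring, 932 and 518 with loess, 474 and 189 with quantile normalization, 521 and 212 with the offset, 24 and 1 when a P flag on 1 array was enough, 1070 and 418 with all gene probes, 234 and 86 without the lower quartile, 462 and 148 with the mean of the probes, and 1474 and 1468 without the replicate block. The number of calls thus depends on scaling and filter, and the cause was not tested. The test has 1 residual degree of freedom, FER2, FRO2 and IRT1 are limited by signal near background, and leaving out an array leaves no test.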

Other observations

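The iron genes named here were chosen after their values were seen. F6'H1 (AT3G13610), an enzyme of coumarin synthesis, was flagged A on both arrays and left out of the test, yet its intensities were 1153 and 1392 in 35S:NROB #2, against 6.10 and 5.44 in wild type. It was at least 47.4-fold higher against the lowest wild-type intensity flagged P. YSL7 (AT1G65730), an oligopeptide transporter family member, had 39.4 and 121 in 35S:NROB #2, against 6.50 and 11.6 in wild type, and was at least 2.59-fold higher. Both were flagged A on both arrays, with all wild-type values under the lowest intensity flagged P.

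Some iron genes differed more between the 2 arrays than between the genotypes. The iron-deficiency transcription factors bHLH101 (AT5G04150) and bHLH38 (AT3G56970) had intensities on array 1 of 105 and 47.3 in 35S:NROB #2 and 101 and 45.0 in wild type. On array 2 they were under the lowest intensity flagged P in both genotypes, at 39.5 and 19.8 in 35S:NROB #2 and 17.1 and 13.6 in wild type, so no size is given. AT1G47400, AT1G47395 and AT2G30766, which the table describes as uncharacterized proteins, were lower on array 2 in both genotypes, by log2 differences of -1.83, -1.43 and -1.10 in 35S:NROB #2 and -2.05, -2.20 and -1.87 in wild type. FER1, FER4 and VTL1 were higher on array 2, by 0.62, 0.52 and 0.93 in 35S:NROB #2 and 0.64, 0.67 and 0.76 in wild type. For FER1 and VTL1 the genotypes differed more than the arrays, with mean log2 ratios of -1.51 and -1.36. For FER4 the 2 were of like size, with a mean log2 ratio of -0.55. Over all genes tested, the difference between arrays had a median of 0.21 in 35S:NROB #2 and 0.22 in wild type, with 5th and 95th percentiles of -0.31 and 0.59 in 35S:NROB #2 and of -0.20 and 0.49 in wild type. Levels set across arrays rest on the authors' normalization, and the cause of these differences was not tested.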
